A study of Mus musculus with 6 samples.

Results

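The genes described here are 55 mouse genes of the cell cycle, among the 23725 genes of the count table: 15 cyclins, cyclin-dependent kinases (CDKs), CDK inhibitors and members of the Rb and E2F families, 16 genes of DNA replication and 24 genes of mitosis. They were chosen as a list of known symbols, and each was found by its Entrez identifier. Mouse embryonic fibroblasts of the 3T3-L1 line were incubated for 24 h with extracellular vesicles (EVs) released by MLP29 cells, a line of mouse liver progenitors (EV libraries 1, 2 and 4), or with a preparation made in the same way from medium that had never been in contact with cells (control libraries 1, 2 and 3). Each library came from its own plate and its own preparation, and both groups were the same cell line in medium depleted of serum vesicles. Reads from stranded mRNA libraries had been counted per gene with a strand setting that is not given in the sources used here. The totals were between 508599 and 665465 counts a library. That is a small part of the sequencing depth stated in the paper, and the reason was not tested.

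As background, cyclins switch CDKs on in turn. D-type cyclins with Cdk4 or Cdk6 phosphorylate Rb, which frees E2F factors to transcribe the genes of DNA synthesis, and the proteins encoded by Cdkn1a and Cdkn1b hold CDKs back. The MCM helicase, DNA polymerases, the sliding clamp Pcna and the enzymes of nucleotide supply then copy the genome. In mitosis condensins compact the chromosomes, spindle motors and checkpoint kinases align them, and the anaphase-promoting complex with Cdc20 and Ube2c degrades the cyclins. Fibroblasts that leave the cycle are known to lose transcripts such as Mki67 and Top2a.

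Many genes of this kind share short letters in their promoters, and the promoters of 4 mitotic genes are shown. They were picked because 3 of them (Mki67, Top2a and Smc2) fell after EV treatment while the other, Ube2c, did not pass the test below. The paper, however, lists Ube2c among its significantly lower transcripts. The lines give the 200 bases before the annotated start from RefSeq (GRCm38.p6, the assembly also named mm10), 5′ to 3′, with capitals marking the CHR element (TTTGAA, the cell cycle genes homology region), the CCAAT box (CCAAT) and E2F-type letters (TTCCCGC or TTGGCGC), each on either strand. In Ube2c a pair of CCAAT boxes on opposite strands overlap.
Mki67 (chr7:135716380-135716579, minus strand): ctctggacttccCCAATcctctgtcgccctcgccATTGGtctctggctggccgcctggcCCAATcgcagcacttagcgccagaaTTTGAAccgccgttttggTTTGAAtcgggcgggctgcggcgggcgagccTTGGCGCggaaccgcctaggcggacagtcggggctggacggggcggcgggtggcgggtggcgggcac
Top2a (chr11:99024190-99024389, minus strand): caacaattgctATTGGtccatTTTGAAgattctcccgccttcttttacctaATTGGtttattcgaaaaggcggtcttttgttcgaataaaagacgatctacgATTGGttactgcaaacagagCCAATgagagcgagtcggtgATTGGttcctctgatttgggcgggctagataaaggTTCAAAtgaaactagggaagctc
Smc2 (chr4:52439021-52439220, plus strand): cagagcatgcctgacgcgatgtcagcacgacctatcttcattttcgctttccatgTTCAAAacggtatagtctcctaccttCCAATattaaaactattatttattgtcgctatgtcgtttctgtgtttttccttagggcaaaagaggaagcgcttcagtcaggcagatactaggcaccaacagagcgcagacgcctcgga
Ube2c (chr2:164769729-164769928, plus strand): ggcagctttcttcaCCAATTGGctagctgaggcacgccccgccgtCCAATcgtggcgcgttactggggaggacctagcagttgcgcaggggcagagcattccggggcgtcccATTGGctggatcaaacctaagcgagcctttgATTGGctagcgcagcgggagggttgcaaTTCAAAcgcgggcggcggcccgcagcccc
The promoter table held 43 of the 55 genes. In the 250 bases before the start, the CCAAT box was present in 90% of the 20 promoters of mitotic genes and 70.6% of the 17 of replication genes, against 33.9% of all 32851 promoters. The CHR letters were in 45% of the mitotic promoters, 5.88% of the replication promoters and 16% of all promoters, and the E2F-type letters were in 35.3% of the replication promoters, 15% of the mitotic promoters and 5.62% of all. Of the 10 promoters found for genes that passed the test below, 100% held a CCAAT box, 40% the CHR letters and 30% the E2F-type letters. Of the 22 promoters, of 17 genes, of members that were tested and did not pass it, 63.6% held a CCAAT box, 18.2% the CHR letters and 22.7% the E2F-type letters. Of the 13 promoters of cyclins, CDKs and their partners, 38.5% held a CCAAT box, 15.4% the CHR letters and 23.1% the E2F-type letters. Of the 12 genes that passed, 7 were mitotic and 1 was of the cyclin group, so role and passing cannot be told apart here. These are descriptions of letters chosen after values were seen, without a test.

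Of the 55 members, 35 had enough counts for the test, and 12 of these passed an adjusted p of 0.05. All 12 were lower in the EV libraries, where 14.4% of the 5066 genes tested passed in that direction. Values of p came from edgeR's quasi-likelihood test and were adjusted by Benjamini and Hochberg's method over all genes tested. Scaled by the total library size alone, 16 members were lower and 0 higher, and over all genes 970 were lower and 90 higher, against 732 and 389 with TMM factors. No member passed towards higher counts, against 7.68% of all genes; at an unadjusted p below 0.05 the only member on that side was Tyms, and the DESeq2 Wald test likewise gave 0 past the adjusted threshold and 1 at an unadjusted p below 0.05. The median log2 fold change of the tested members was -0.51, and that of all genes tested was 0.014. The normalized CPM of every EV library lay below that of every control library in 16 of the 35, against 21.5% of all genes tested, and above it in 2, against 17.9%. The filter on low counts bears on these numbers, because 12 of the 35 members, and 9 of the 12 that passed the test, had enough counts only in the control libraries. Over all 5066 genes tested 834 had enough counts only in the control libraries and 197 only in the EV libraries, where the members had 0. The 9 were Smc2, Ncapd2, Top2a, Bub1b, Cenpe, Rfc1, Rpa1, Mcm3 and Rrm1. Members with enough counts only in the control libraries could be tested only because they were high there, so the shares are not a measure of all 55 genes.

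**Figure D1:**
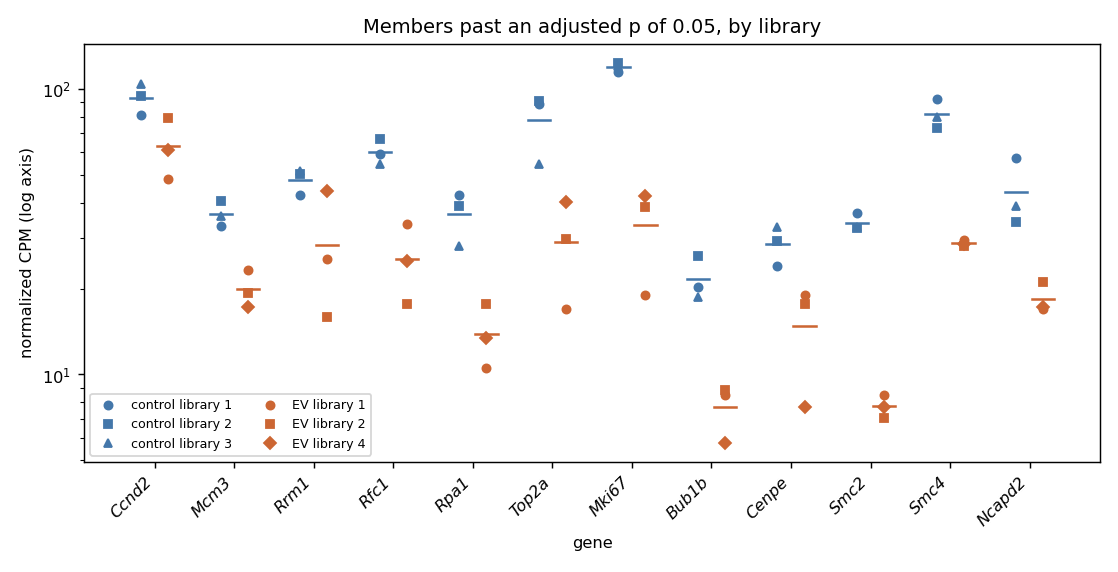
Normalized CPM (CPM scaled with TMM factors, log axis) of the 12 genes past an adjusted p of 0.05. Points are libraries, with blue for control and orange for EV and a marker shape for each library number, and bars are group means. In 11 of the 12 genes every EV point lies below every control point, and in Rrm1 EV library 4 lies above control library 1.

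Counts by role are a description, and the difference between roles was not tested. Among cyclins, CDKs and their partners 1 of 7 tested genes passed (14.3%, beside 14.4% of all genes that were lower), with a median log2 fold change of -0.12. Among replication genes 4 of 13 passed (30.8%), with a median of -0.60. Among mitotic genes 7 of 15 passed (46.7%), with a median of -0.61. The genes that had enough counts only in the control libraries were 0 of the 7 tested cyclin genes, 7 of the 13 replication genes and 5 of the 15 mitotic genes, so the filter bears on the roles unequally. The roles also differ in exon bases shared with a gene on the opposite strand, found in 6 of the 7 tested cyclin genes, as given below. The mitotic median lies in a gap between genes that fell strongly and genes near 0, and it was -0.092 under a filter that asked 10 counts of each library.

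**Figure D2:**
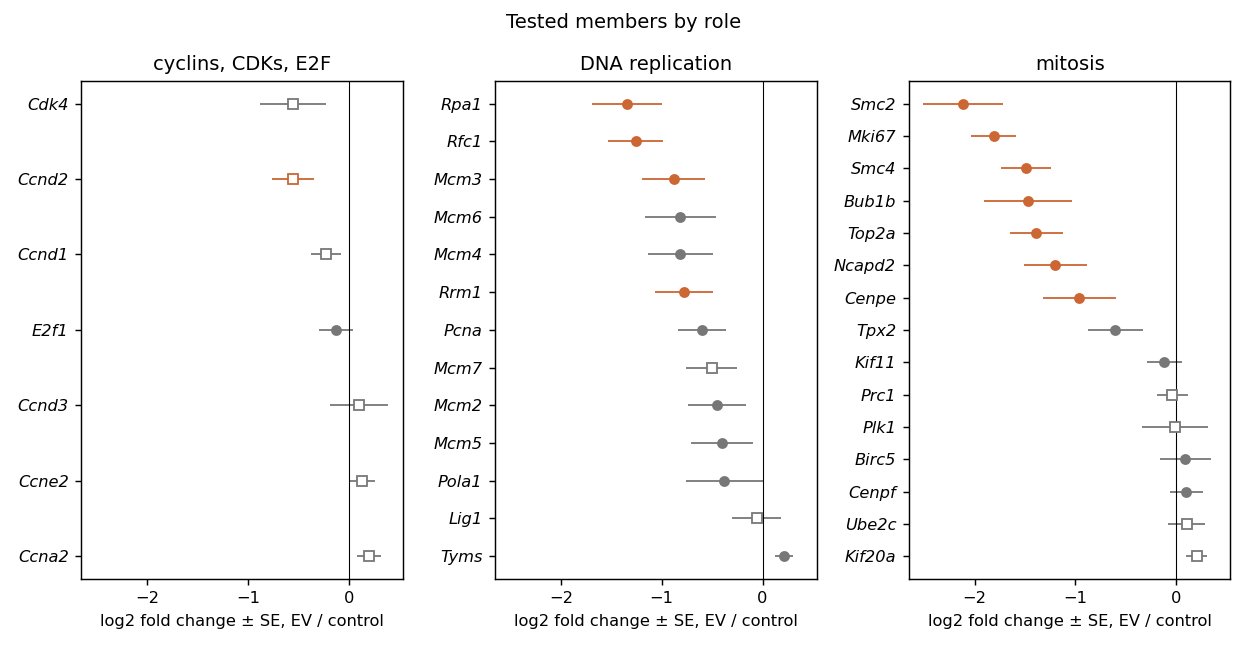
Log2 fold change (EV over control) with its standard error for the 35 tested genes, in panels by role. Orange marks an adjusted p below 0.05 and grey the rest, and open squares are genes with an exon that shares bases with an exon on the opposite strand. Mitotic genes spread from Smc2 at -2.11 to Kif20a at 0.20, and the cyclin panel lies between -0.56 and 0.20.

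Among genes of chromosome condensation 3 passed the test, with Smc2 the steepest fall of all tested members. Smc2 and Ncapd2 had enough counts only in the control libraries, so that rank is partly set by the filter. Smc2, an ATPase subunit shared by both condensin complexes (chromosome 4, 52439221 to 52488365), had 20, 20 and 21 counts in control libraries 1, 2 and 3 and fell to 4 in each EV library. This was 34.1 ± 2.47 normalized CPM (SD, n = 3) against 7.72 ± 0.705 (SD, n = 3), a 4.32-fold lower level (log2 fold change -2.11, standard error 0.40, adjusted p = 7.28e-05 from edgeR). Its partner ATPase Smc4 had control counts of 50, 45 and 51 and EV counts of 14, 16 and 15 (log2 fold change -1.49, standard error 0.25, adjusted p = 6.78e-06 from edgeR). The spread within each group was small beside the gap for both genes. Ncapd2, a regulatory subunit of condensin I, had 31, 21 and 25 counts against 8, 12 and 9 (log2 fold change -1.20, adjusted p = 0.00449 from edgeR). No control library overlapped an EV library in any of the 3 condensin genes. Every EV library lay below every control library in 21.5% of all genes tested.

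Mki67, which encodes the coat protein of mitotic chromosomes used as a proliferation marker (chromosome 7, 135689784 to 135716450), had the lowest adjusted p of all members. Its control counts were 62, 76 and 77 and its EV counts 9, 22 and 22, or 119 ± 4.61 against 33.3 ± 12.5 normalized CPM (SD, n = 3 each). The level was 3.51-fold lower (log2 fold change -1.81 with standard error 0.23, adjusted p = 1.22e-08 by edgeR), and omitting any single library left the log2 value between -1.96 and -1.52. Top2a, the topoisomerase that untangles sister chromatids (chromosome 11, 98992947 to 99024199), had control counts of 48, 56 and 35 and EV counts of 8, 17 and 21. It was 2.62-fold lower (log2 fold change -1.39, standard error 0.26, adjusted p = 8.93e-05 from edgeR). EV library 1 was the lowest library for both genes.

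Of the genes of the spindle checkpoint and kinetochore, Bub1b and Cenpe passed the threshold. Bub1b, which encodes the checkpoint kinase BubR1, had 11, 16 and 12 counts against 4, 5 and 3 (log2 fold change -1.47, standard error 0.44, adjusted p = 0.0121 from edgeR). Cenpe, a kinetochore motor, had 13, 18 and 21 counts against 9, 10 and 4 (log2 fold change -0.96, standard error 0.36, adjusted p = 0.0464 from edgeR). Cenpe passed in 3 of the 12 alternative fits that gave it a value, with adjusted p between 0.0257 and 0.393, and it did not pass with any library left out, with a log2 fold change of -0.62 without EV library 4. Bub1b passed in 9 of 12 (adjusted p between 0.00689 and 0.0908 from edgeR), and did not pass without control library 2, without EV library 4 or with the replicate block. Tpx2, a spindle assembly factor, had a log2 fold change of -0.61 with no overlap between the groups, and missed the threshold (adjusted p = 0.0971 from edgeR, and 0.0455 with only the total library size).

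The other 7 tested mitotic genes described next did not pass the test, over a wide range of counts. Kif20a, a kinesin of cytokinesis and the highest mitotic member per kilobase of exon (136 normalized CPM per kb), had control counts of 290, 328 and 371 and EV counts of 296, 372 and 322. After scaling every EV library was above every control library, with a log2 fold change of 0.20 that missed the threshold (adjusted p = 0.14 from edgeR). Kif11, the motor that separates spindle poles, had 65, 70 and 76 counts against 48, 58 and 63 (log2 fold change -0.12, standard error 0.17). Cenpf, a kinetochore protein, had 65, 72 and 84 counts against 65, 71 and 70 (log2 fold change 0.10, standard error 0.16, and -0.04 with only the total library size). Neither passed (adjusted p = 0.647 and 0.684 from edgeR). Prc1, a microtubule bundler of the midzone, had 96, 104 and 106 counts against 93, 90 and 76 (log2 fold change -0.04), and Ube2c, the ubiquitin-conjugating enzyme of the anaphase-promoting complex, ranged from 48 to 58. Birc5 (survivin) lay between 17 and 32 counts and Plk1, a mitotic kinase, between 12 and 17. None of these 4 passed the threshold (adjusted p between 0.723 and 0.987 from edgeR), and Ube2c and Birc5 changed sign with only the total library size (log2 fold changes of -0.03 and -0.05). The paper lists Ube2c and Prc1 as significantly lower in its own DESeq2 analysis, which the fits to the deposited counts did not show. Conversely, none of the 12 members that passed here is among the transcripts that the paper lists as significantly altered. That list is also much shorter than the 1121 genes that passed here in either direction. The reason for the difference was not tested.

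Among replication genes the falls were clearest for Rfc1 and Rpa1. Rfc1, the large subunit of the clamp loader (chromosome 5, 65261852 to 65338617), had control counts of 32, 41 and 35 and EV counts of 16, 10 and 13. This was 60.1 ± 6.07 against 25.5 ± 8.11 normalized CPM (SD, n = 3 each), lower by edgeR (log2 fold change -1.26 with standard error 0.27, adjusted p = 0.000609). Rpa1, the largest subunit of the protein that coats single-stranded DNA, had 23, 24 and 18 counts against 5, 10 and 7 (log2 fold change -1.35, standard error 0.35, adjusted p = 0.00358 from edgeR). The groups did not overlap for either gene. Rfc1 and Rpa1, with Smc2, Smc4, Ncapd2, Mki67 and Top2a, passed in every alternative fit that gave them a value. Rfc1 and Smc4 had a value in all 14 fits. Smc2 had one in 12, and Rpa1, Ncapd2, Mki67 and Top2a in 13. These genes could not be tested in the fit that asked 10 counts of each library. The genes that always passed are 7 of the 12, and the other 5 each lost the threshold in some fits. Of the 7, Rfc1, Rpa1, Smc2, Ncapd2 and Top2a had enough counts only in the control libraries. The alternative fits draw on the same libraries and most use the same filter, so they are not independent checks. The share of all genes tested that always passed was not worked out.

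The 6 subunits of the MCM helicase all had lower counts on average in the EV libraries, and 1 of them, Mcm3, passed the test. Of all genes tested, 48.8% had a log2 fold change below 0. Mcm3 had control counts of 18, 25 and 23 and EV counts of 11, 11 and 9 (log2 fold change -0.88, standard error 0.31, adjusted p = 0.0355 from edgeR). It passed in 4 of 13 alternative fits, with adjusted p between 0.0167 and 0.190, and did not pass without control library 1, without control library 2 or without any of the EV libraries. Mcm4 and Mcm6 had nearly the same log2 fold change, -0.81 and -0.82, and missed the threshold (adjusted p = 0.0587 and 0.0835 from edgeR). Mcm7, with control counts of 27, 28 and 35 and EV counts of 17, 20 and 18, was at -0.51, Mcm2 at -0.45 and Mcm5 at -0.40. In Mcm3, Mcm4, Mcm6 and Mcm7 the EV libraries lay below all control libraries, as in 21.5% of all genes tested, and in Mcm2 and Mcm5 the groups overlapped. Mcm3, Mcm4 and Mcm6 had enough counts only in the control libraries, so they could be tested only because they were high there.

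Pcna, the sliding clamp, had control counts of 34, 48 and 35 and EV counts of 16, 24 and 27, and missed the threshold (log2 fold change -0.60, adjusted p = 0.0612 from edgeR). Rrm1, the large subunit of ribonucleotide reductase, had 23, 31 and 33 counts against 12, 9 and 23. It passed (log2 fold change -0.78, adjusted p = 0.0442 from edgeR), but EV library 4 overlapped the controls and the log2 fold change was -0.43 without EV library 2, where the threshold was lost. Without EV library 4 the value was -1.21. The threshold was also lost without control library 1, 2 or 3 and without EV library 1, with adjusted p between 0.0117 and 0.315 over all alternatives. Pola1, the catalytic subunit of the primase-bound polymerase, and Lig1, the ligase that seals nicks, did not pass (log2 fold changes of -0.38 and -0.05). Lig1 had control counts of 31, 29 and 39 and EV counts of 15, 39 and 29, and its log2 fold change was 0.22 without EV library 1.

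Tyms, thymidylate synthase, stood apart from the other replication genes in level and direction. It had control counts of 1218, 1298 and 1579 and EV counts of 1352, 1459 and 1300, or 404 normalized CPM per kb, the highest of the tested members. After scaling, the means were 2275 ± 179 and 2640 ± 192 normalized CPM (SD, n = 3 each), with every EV library above every control library. The log2 fold change of 0.21 (standard error 0.09) missed the threshold (adjusted p = 0.0612 from edgeR), and passed it in 4 of 14 alternative fits, those with DESeq2's size factors, with the replicate block, without control library 3 and among genes without shared exons. It was 0.08 with only the total library size (adjusted p = 0.479 from edgeR) and 0.13 without control library 2 (adjusted p = 0.372 from edgeR). A pseudogene, Tyms-ps, is listed with between 256 and 301 counts, so that reads could be divided between the copies.

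Of the G1 cyclins, Ccnd2 passed the threshold and Ccnd1 and Ccnd3 did not. Ccnd2 had control counts of 44, 58 and 67 and EV counts of 23, 45 and 32 (log2 fold change -0.55, standard error 0.21, adjusted p = 0.0438 from edgeR). It passed in 5 of 13 alternative fits (adjusted p between 0.0139 and 0.227), and lost the threshold without control library 2 or 3, without EV library 1 (log2 fold change -0.37) or 4, and with DESeq2's size factors. Ccnd1 had 110, 138 and 146 counts against 61, 134 and 99, where EV library 1 was low and EV library 2, after scaling, was above all control libraries. Its log2 fold change of -0.22 did not pass (adjusted p = 0.278 from edgeR) and was 0.0042 without EV library 1. Ccnd3 ranged from 13 to 28 counts with a log2 fold change of 0.10, which was -0.033 with only the total library size. Cdk4, the kinase partner of the D-type cyclins, had 22, 20 and 14 counts against 9, 12 and 12, and did not pass (log2 fold change -0.56, adjusted p = 0.211 from edgeR).

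The S phase cyclins had more counts and did not pass the test. Ccna2 had control counts of 194, 201 and 275 and EV counts of 179, 251 and 240 (log2 fold change 0.20, standard error 0.12, adjusted p = 0.210 from edgeR). Ccne2 had 151, 181 and 221 counts against 144, 208 and 176 (log2 fold change 0.13, standard error 0.12, and -0.0019 with only the total library size). E2f1, a transcription factor of the G1 to S transition, had 73, 87 and 89 counts against 72, 53 and 73 (log2 fold change -0.12). The groups overlapped in all 3 genes, and Ccne2 and E2f1 also missed the threshold (adjusted p = 0.438 and 0.621 from edgeR).

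The other 20 members had too few counts for the test. Among the G1 and S phase genes these were Cdk6, Cdkn1a, Cdkn1b, Ccne1, Cdk1, Cdk2, Rb1 and E2f3. Their highest counts in any library were 6 for Cdk6 and Rb1, 14 for Cdkn1a and Cdkn1b, 5 for Ccne1, 13 for Cdk1, 8 for Cdk2 and 11 for E2f3. Cdk6, a partner of the D-type cyclins, had 0, 0 and 2 counts against 5, 1 and 6, the largest difference towards higher counts among these members in a fit without the filter, where it missed the threshold (log2 fold change 2.64, standard error 0.91, adjusted p = 0.072 from edgeR). The inhibitor Cdkn1a (p21) had control counts of 9, 14 and 13 and EV counts of 2, 8 and 6. Among replication genes Rrm2 reached 13 counts, Pold1 4 and Pole 11. Among mitotic genes Ccnb1, Ccnb2, Bub1, Foxm1, Aurka, Aurkb, Cdc20, Kif23 and Anln were not tested. The highest counts were 2 for Ccnb2, 8 for Bub1 and Foxm1, 10 for Aurka, 4 for Aurkb, 6 for Cdc20 and 11 for Kif23. Ccnb1, cyclin B1, had 4, 6 and 5 counts against 4, 1 and 1. Anln (anillin), which organises the cleavage furrow, had the most counts of these, with 22, 16 and 9 against 2, 5 and 6. In a fit without the filter on low counts Anln was the only one of the 20 to pass (adjusted p = 0.0244 from edgeR). The paper lists Ccnb1, Bub1 and Foxm1 as significantly lower in its own DESeq2 analysis.

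With the strand setting of the counting unknown, it matters that the annotation places some members against a gene on the other strand. In GENCODE vM21, on the same assembly as the counts, 18 of the 55 members had an exon that shares bases with an exon of an opposite-strand gene. In 13 of the 18 the RefSeq spans of both genes also overlap, and Ube2c is not among them. The opposite-strand gene had more counts than the member in every library in 10 of 16 pairs with both genes in the table, and fewer in 5. LTO1 had between 2791 and 3692 counts, where Ccnd1, which shares 1100 exon bases with it, had between 61 and 146. Bysl had between 888 and 1345 counts beside Ccnd3, and Cdc23 between 624 and 1016 beside Kif20a. In the other direction, Rccd1 had at most 2 counts beside Prc1 with 76 to 106. Each value given here is the count listed under a gene, and whether it came from the transcript of that gene was not tested. Had reads of the stranded kit been counted with the opposite strand setting, this doubt would apply to all 55 members, also to the 37 without an annotated shared exon.

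**Figure D3:**
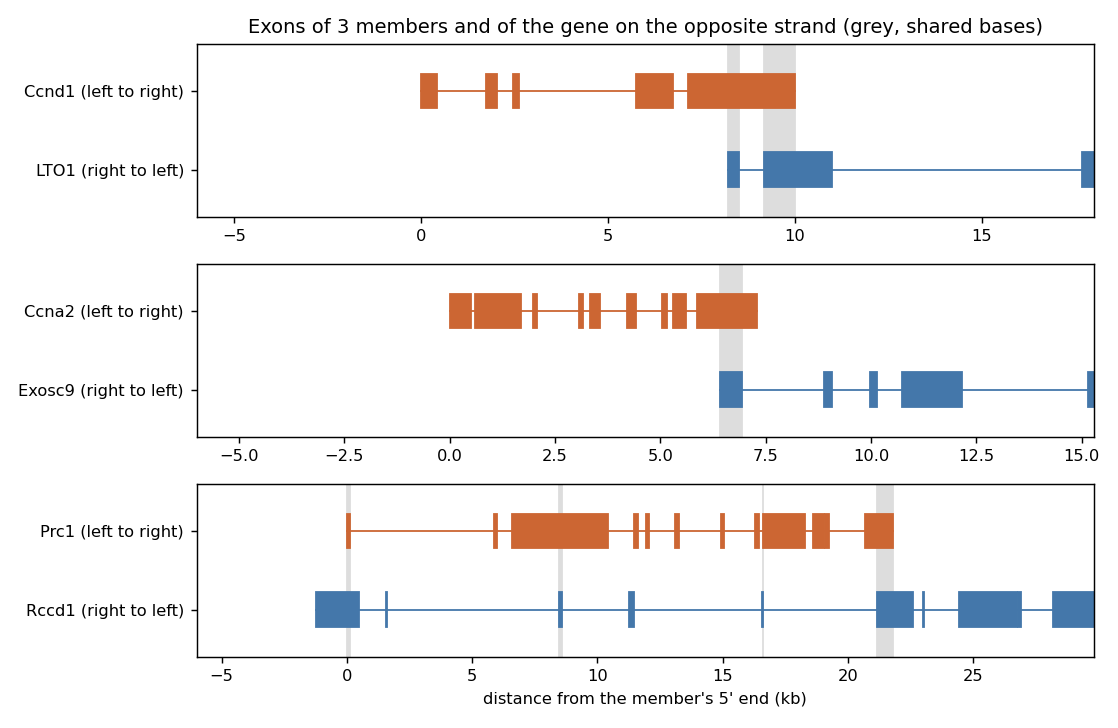
Exons (boxes) of Ccnd1, Ccna2 and Prc1 and of the opposite-strand genes LTO1, Exosc9 and Rccd1, by distance in kb from the 5′ end of the member, with shared bases in grey. LTO1 and Exosc9 share the last exon of the member, and Rccd1 runs along the whole of Prc1. The opposite-strand genes continue past the frame.

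Counts of members past the test were given apart for those with and without such a shared exon. Of the 18 with one, 12 were tested and 1 passed, Ccnd2 (8.33%, median log2 fold change -0.02), against 9.49% of all tested genes with a shared exon that were lower. Of the 37 without one, 23 were tested and 11 passed (47.8%, median -0.81), against 19.9% of all tested genes without a shared exon. Over all tested genes the median log2 fold change was 0.13 with a shared exon and -0.21 without one. By role, 1 of 6 tested cyclin genes, 0 of 2 replication genes and 0 of 4 mitotic genes with a shared exon passed. Without a shared exon 0 of 1, 4 of 11 and 7 of 11 passed, so role and shared exons cannot be told apart. Over all 19 mitotic members without a shared exon, whether tested or not, the summed level was 828 ± 24.3 normalized CPM in the control libraries and 499 ± 23.9 in the EV libraries (SD, n = 3 each). Over the 5 mitotic members with one it was 843 ± 24.8 and 924 ± 43.9. That direction depended on the TMM factors: as a share of the counts of tested genes the same sum took control values of 0.0901%, 0.0874% and 0.0877% and EV values of 0.0936%, 0.0868% and 0.0838%, so that EV libraries 2 and 4 lay below all controls. For the 12 replication members without a shared exon other than Tyms, which was left out after its values were seen, the sums were 429 ± 46.8 and 252 ± 35.9, and for the 3 with one 117 ± 15.6 and 101 ± 23.7. Over all 16 replication members, where Tyms holds most of the counts, the sum went the other way, with 2821 ± 155 normalized CPM in the control libraries and 2994 ± 142 in the EV libraries. The cyclin group, mostly with shared exons, summed to 1281 ± 92.9 and 1265 ± 147 over all 15 members. The difference between the sets was not tested, nor was the part of the shared exons in it.

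**Figure D4:**
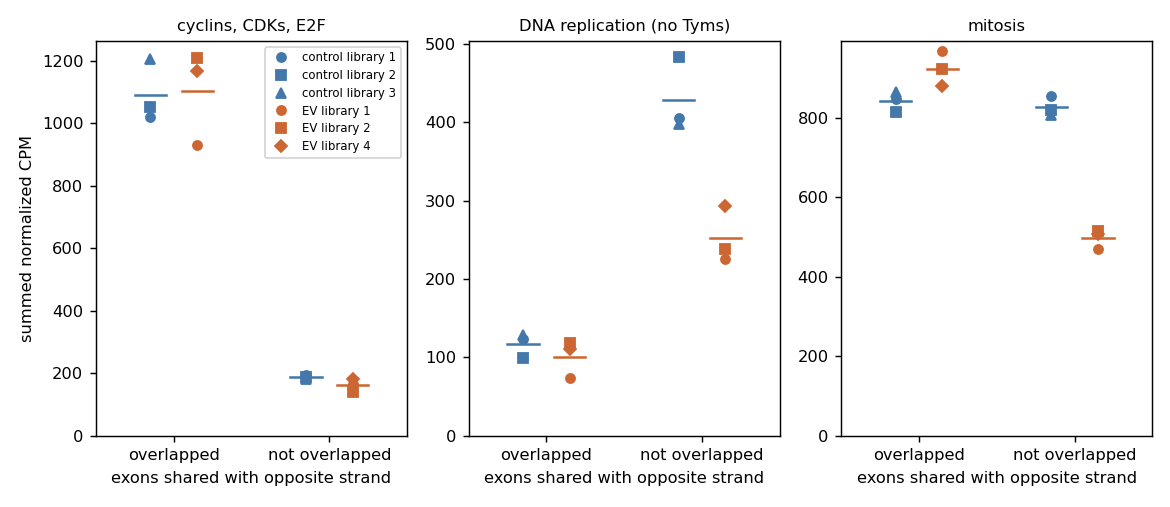
Summed normalized CPM per library of the members of each role, split by whether an exon shares bases with an opposite-strand exon, with Tyms left out. Points are libraries (blue control, orange EV, a shape for each library number) and bars are group means. The EV libraries lie below the controls for mitotic genes without a shared exon (471 to 516 against 808 to 855) and replication genes without one (226 to 293 against 398 to 483).

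Other genes of the same processes, from lists of 178 genes, were read beside the members. Of these 75 were tested, 17 passed towards lower counts (against 14.4% of all genes tested) and 2 towards higher counts, with a median log2 fold change of -0.21. Towards lower counts, 4 of 15 tested genes of G1 control, 4 of 22 of DNA replication and 9 of 38 of mitosis passed. In either direction the shares were 26.7%, 22.7% and 26.3%, beside 22.1% of all genes tested and 34.3% of the tested members. The lowest adjusted p was that of Mdm2, the ubiquitin ligase of p53, with control counts of 746, 881 and 739 and EV counts of 274, 363 and 391 (log2 fold change -1.01, adjusted p = 2.18e-11 from edgeR). The cohesin subunits Smc1a and Rad21 followed, each with a log2 fold change of -1.13, together with Skp1, of the SCF ubiquitin ligase (-2.40, from 11, 15 and 12 counts to 0, 5 and 1, and -4.10 without EV library 2), and Pole3, a polymerase epsilon subunit (-0.99). Pole3 lost the threshold without EV library 2. The genes that rose were Chaf1a, a chromatin assembly factor (log2 fold change 0.29, adjusted p = 0.0133 from edgeR), and the condensin I subunit Ncapg (0.55, adjusted p = 0.0469 from edgeR), the latter beside the lower Smc2, Smc4 and Ncapd2. Chaf1a lost the threshold without control library 1 or 2 or EV library 2, and Ncapg without any 1 of the control libraries or EV library 4. Both share exon bases with an opposite-strand gene.

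Markers of the cell type moved in the same libraries. Of 12 fibroblast markers 10 were tested, all 10 had a log2 fold change below 0 and 7 passed the test towards lower counts (70%, against 14.4% of all genes tested), with a median log2 fold change of -1.07, and the list summed to between 2424 and 2823 normalized CPM in the control libraries and between 1061 and 1325 in the EV libraries. Lum and Fap were at 0 in every library. Adipocyte markers (2 to 10 counts in all, Adipoq and Plin1 at 0), liver progenitor and hepatocyte markers (10 to 13 counts, nearly all Sox9, with Alb, Afp and Epcam at 0) and blood and endothelial markers (0 to 5 counts) were near the floor in both groups. The part of these changes in the cell cycle genes was not tested. Whether the counts came from the transcripts of the genes they are listed under was not tested either. If they did, fewer cycling cells and less RNA of these genes per cell cannot be told apart in bulk samples.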

How the data were processed

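The authors deposited a table of unnormalized counts for 3 control and 3 EV libraries. They aligned reads to mm10 with STAR and counted them with Rsubread. Versions, annotation release and strand setting are not given in the sources used here. Members were matched by Entrez identifier to RefSeq symbols (GRCm38.p6), and shared exons were taken from GENCODE vM21, which matched 88.7% of identifiers.

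R 4.3.3 and edgeR 4.0.16 were used for the quasi-likelihood fit, with low counts removed by filterByExpr, TMM scaling, glmQLFit (legacy = FALSE) and no covariates, over 5066 genes, with Benjamini-Hochberg adjustment. Standard errors are the log2 fold change over the square root of F, and the common biological coefficient of variation was 0.0779. The study used DESeq2, here an alternative (1.42.0). Other alternatives were the scaling, the filter, the replicate block, genes without shared exons and each library left out. In the block fit control library 3 and EV library 4 are each alone in a block. Its contrast therefore rests on libraries 1 and 2 of each group. Fits were tested on simulated data. Replicates are plates of 1 cell line and differed beyond sampling noise (chi-square per degree of freedom 1.15 to 1.76). Members and lists were chosen with earlier results of these data known. Named were all members, and of the other pathway genes at most 5 a direction with the lowest adjusted p. The 4 symbols without a direct match were resolved by synonyms, and the one that repeated a listed gene was dropped. Promoters to print and motifs were chosen after values were seen.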

Additional observations from a re-analysis of the deposited data

How the results depend on the processing

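With all 6 libraries, the number of members past the threshold was 12, all lower. It was 6 with the DESeq2 Wald test, which gave 9 of the 12 an adjusted p, and 4 when 10 counts were asked of each library, where 3 of the 12 could be tested. Leaving out each library in turn gave between 7 and 13 members, of which between 7 and 12 were lower, with 7 without control library 2. Over all genes the number was 1121, against 539 with the Wald test, 632 with 10 counts asked of each library, 541 among genes without shared exons (fewer genes tested), and between 489 (without control library 2) and 1215 with single libraries omitted; without control library 1 it was 732. For members past the threshold towards higher counts the number was 0 with TMM factors, 1 (Tyms) with DESeq2's size factors, with the replicate block, without control library 3 and among genes without shared exons only, and otherwise 0.

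The median log2 fold change of the mitotic members was -0.74 with only the total library size, -0.85 without the filter, -0.092 when 10 counts were asked of each library, -0.45 with the replicate block and -1.02 among genes without shared exons. Omitting single libraries gave -0.95 (EV library 2) to -0.58. The replication median was -0.88 with the replicate block and between -0.75 and -0.50 with each library left out. The cyclin median was 0.058 among genes without shared exons, where E2f1 alone remained, and between -0.23 and -0.11 with each library left out. The median of all genes tested, 0.014 with TMM factors and the filter, was -0.12 with scaling by the total library size alone and -0.13 without the filter.

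Values near 0 changed sign. With only the total library size these were Ccnd3 (-0.033), Ccne2 (-0.0019), Ube2c (-0.035), Cenpf (-0.035) and Birc5 (-0.047). Without the filter they were Lig1 (0.031), Prc1 (0.048) and Plk1 (0.076), with the replicate block Ccnd3 (-0.35), Prc1 (0.027) and Plk1 (0.044), and among genes without shared exons E2f1 (0.058) and Kif11 (0.061). Plk1 was 0.0090 with DESeq2's size factors and 0.011 with the Wald test. With each library left out, Ccnd1 lay between -0.42 and 0.0042, Ccnd3 between -0.24 and 0.30, E2f1 between -0.22 and 0.10, Lig1 between -0.29 and 0.22, Prc1 between -0.12 and 0.091, Plk1 between -0.14 and 0.063, and Birc5 between -0.033 and 0.35. The cause was not tested. The legacy form of the quasi-likelihood fit, added after the data were seen, gave the same 12 members.

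The replicate numbers 1 and 2 are shared by the groups, but the labels do not say that they mark a shared preparation, and deviations of same-numbered libraries correlated at 0.061 and 0.069. With the number as a block 8 of the 12 members stayed past the threshold and 3 others joined. Control library 3 and EV library 4, each alone in a block, add nothing to the contrast of that fit, so it is not a check over all libraries. The filter on low counts kept 20 of the 55 members from the test.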
